A study of Homo sapiens with 23 samples.

Results

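The genes described here are 10 of the 57875 listed by the deposited count files. They encode enzymes, and partners of enzymes, that make, tail, edit or destroy microRNAs (miRNAs), and they were listed by name: DROSHA, DGCR8, XPO5, DICER1, PRKRA, TARBP2, TUT4, TUT7, ADAR and ZSWIM8. Each name was matched to its Ensembl identifier, and all 10 were found and passed the filter on low counts.

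In the canonical pathway, DROSHA and its partner DGCR8 crop a hairpin from the primary transcript in the nucleus, XPO5 exports the hairpin, and DICER1, with TARBP2 or PRKRA bound to it, cuts out the duplex that an argonaute protein loads. TUT4 and TUT7 add uridines to the ends of hairpins and other RNAs, and ADAR converts adenosines in double-stranded RNA to inosines. ZSWIM8 is the substrate receptor of a cullin-RING ubiquitin ligase that targets argonaute when a miRNA is paired extensively with a trigger RNA, so that the miRNA is lost.

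The study sequenced RNA from HCT116, a human colorectal carcinoma line, to ask what argonaute proteins do to steady-state RNA. There were 5 lines with 3 biological replicates each, 15 samples in all: wild type (WT), AGO1-/- (AGO1 knockout), AGO2-/- (AGO2 knockout), AGO1-/-, AGO2-/- (AGO1/2 knockout) and AGO1-/-, AGO2-/-, AGO3-/- (AGO1/2/3 knockout). Cells were at passages 12 to 18, and each knockout genotype is a single CRISPR-edited line, so genotype and line cannot be told apart. The 15 totals of estimated counts lay between 27709971 and 45271146 (median 30701840).

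The AGO2 knockout libraries stand apart in their headers and depth. The headers of their files carry the word quasi, which the deposited notes do not explain and which may name another quantification mode, and those of the other 12 samples do not. Their totals of 40419152 to 45271146 counts lay above those of every other sample except replicate 1 of the AGO1/2/3 knockout, with 40567975. Neither can be told apart from the AGO2 knockout genotype, and this applies to every comparison below that uses that line.

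RNA of the targeted genes was used to check the labels. Levels are normalized counts, scaled by the TMM method to the mean library size of 33251761. Wild-type cells averaged 4350 ± 677 for AGO1 (SD, n = 3). Its level was 27% of that in the AGO1 knockout, 28% in the AGO1/2 knockout and 24.8% in the AGO1/2/3 knockout, and 122% in the AGO2 knockout. AGO3 RNA in the AGO1/2/3 knockout was 46.1% of wild type (1721 ± 189 against 3737 ± 530 normalized counts). Both genes were therefore low where the labels say they were edited. AGO2 RNA gave no such check over the 3 lines in which it was edited: it stood at 70.4% of wild type in the AGO2, 83.4% in the AGO1/2 and 132% in the AGO1/2/3 knockout. By edgeR's test, described below, it was lower in the AGO2 knockout (log2 -0.51, adjusted p = 0.00518) and higher in the AGO1/2/3 knockout (0.40, adjusted p = 0.00477). In the AGO1/2 knockout it was not called (-0.26, adjusted p = 0.0924). In the AGO1 knockout, where AGO2 was not edited, it stood at 85.9%. An edited gene can still be transcribed, which applies to AGO1 and AGO3 as well, and the cause of the AGO2 values was not tested. AGO4, which was not edited, stood at 245% in the AGO1/2/3 knockout. Markers of epithelium, from which the line derives, summed to 1364 to 2708 CPM (normalized counts as a share of the library) over 6 genes, with KRT8 the most abundant at 489.6 to 1218 CPM.

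Differences between lines were tested gene by gene with edgeR's quasi-likelihood test on 22842 genes, and a gene is said to rise or fall where its p, adjusted by the Benjamini-Hochberg method over those genes, was at or under 0.05. The 4 comparisons with wild type share the same 3 wild-type samples. In AGO1 knockout cells edgeR called 0 of the 10 genes, beside 8.68% of all genes tested (3.17% higher and 5.50% lower). DICER1 and ADAR there had an unadjusted p under 0.05, and DESeq2's Wald test called the same 2. Replicates of the AGO1 knockout did not overlap those of wild type for 3 of the 10, beside 23.1% of all genes. In AGO2 knockout cells 2 passed, 1 higher and 1 lower, beside 19.3% (8.55% higher and 10.8% lower), and 3 had replicates that did not overlap, beside 37.1%. In AGO1/2 knockout cells 2 passed, both higher, beside 16.7% (8.37% higher and 8.35% lower), and 4 did not overlap, beside 29.7%. In AGO1/2/3 knockout cells 5 passed, 4 higher and 1 lower, beside 40.1% (20.3% higher and 19.8% lower), and 7 did not overlap, beside 50.0%. In all 4 lines the count among the 10 genes was thus within a few genes of the background. The median absolute log2 fold change of the 10 was under that of all genes tested in each line: 0.16 against 0.22 in the AGO1, 0.13 against 0.30 in the AGO2, 0.16 against 0.26 in the AGO1/2 and 0.24 against 0.41 in the AGO1/2/3 knockout.

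**Figure D1:**
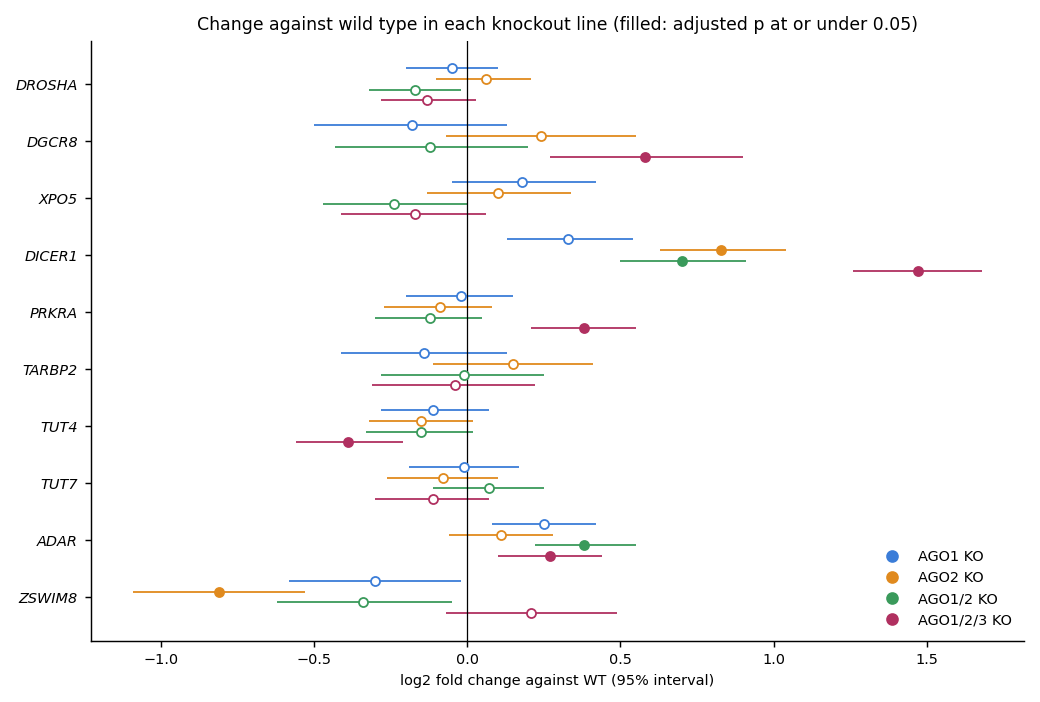
Log2 fold change of each of the 10 genes against wild type in the 4 knockout lines, with 95% intervals; filled points have an adjusted p at or under 0.05. DICER1 lies to the right of 0 in all 4 lines, at 0.33, 0.83, 0.70 and 1.47, and ZSWIM8 in the AGO2 knockout, at -0.81, is the lowest point.

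DROSHA, the nuclear nuclease (ENSG00000113360, chromosome 5, 31400494 to 31532196, minus strand, GRCh38), varied little. Normalized counts were 2739, 2658 and 2818 in wild-type cells, 2815, 2667 and 2455 in the AGO1 knockout, and 2781, 2948 and 2817 in the AGO2 knockout. They were 2483, 2457 and 2367 in the AGO1/2 knockout and 2501, 2533 and 2496 in the AGO1/2/3 knockout. The last 6 samples all lay under the 3 wild-type samples, at 89% and 91.7% of the wild-type mean. Against wild type the adjusted p ran from 0.167 to 0.766 over the 4 lines, so no difference was called, with log2 fold changes of -0.17 ± 0.08 (SE) in the AGO1/2 and -0.13 in the AGO1/2/3 knockout. With scaling by total counts alone both passed the test, at -0.26 (adjusted p = 0.0491) and -0.27 (adjusted p = 0.0193), and the second also with a filter of at least 10 counts in every sample (-0.19, adjusted p = 0.0423). DROSHA was lower in the AGO1/2 than in the AGO2 knockout, where the 3 replicates of each did not overlap (log2 -0.23 ± 0.08, adjusted p = 0.048). That call was lost under 10 of 13 alternatives: when any of those 6 samples was left out (adjusted p 0.0834 to 0.183), with total counts (0.113), with no filter on low counts (0.129), with only the 6 samples compared (0.0603) and with the replicate number as a block (0.0652).

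DGCR8, which binds the hairpin for DROSHA (ENSG00000128191, chromosome 22, 20080221 to 20111877, plus strand), is known for a loop in which the 2 proteins cut hairpins within its own mRNA. GENCODE v44 places MIR3618 and MIR1306 inside its exons on the same strand, and both were listed at 0 normalized counts in every sample. The libraries were of total RNA depleted of ribosomal RNA, and whether they capture RNAs this short was not tested. The mature miRNAs of MIR3618 and MIR1306 are shown because these hairpins are the reported cleavage sites. RefSeq on GRCh38.p14 places miR-3618 at chr22:20085797-20085818, miR-1306-5p at chr22:20086072-20086093 and miR-1306-3p at chr22:20086112-20086129, plus strand, and capitals mark the seed, bases 2 to 8.
hsa-miR-3618: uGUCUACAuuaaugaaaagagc
hsa-miR-1306-5p: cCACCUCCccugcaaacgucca
hsa-miR-1306-3p: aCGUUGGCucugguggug

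DGCR8 RNA measured 1756, 1350 and 1436 normalized counts in the wild type, against 2330, 2240 and 2243 in the AGO1/2/3 knockout. The other lines gave 1559, 1341 and 1096 (AGO1), 1636, 2014 and 1727 (AGO2) and 1733, 1121 and 1339 (AGO1/2). All 3 AGO1/2/3 knockout samples lay above all 12 others, while the other 4 lines overlapped their neighbours in the order AGO2 knockout, wild type, AGO1/2 knockout, AGO1 knockout. DGCR8 rose in the AGO1/2/3 knockout, to 150% of wild type (log2 0.58 ± 0.16, 95% interval 0.27 to 0.90, adjusted p = 0.00811), and was higher there than in the AGO1/2 knockout (log2 0.70 ± 0.16, adjusted p = 0.00513). The other 3 lines did not pass against wild type, at log2 -0.18 (AGO1), 0.24 (AGO2) and -0.12 (AGO1/2). Without replicate 1 of the AGO1/2 knockout, the sample with 1733, it was also called lower in that line than in the AGO2 knockout (log2 -0.54, adjusted p = 0.0262).

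XPO5, exportin 5 (ENSG00000124571, chromosome 6, 43522334 to 43576038, minus strand), was measured at 3915, 4413 and 3561 normalized counts in wild type and at 4779, 4747 and 3971 in the AGO1 knockout. In the AGO2 knockout it had 3637, 4850 and 4299, in the AGO1/2 knockout 3595, 3082 and 3409, and in the AGO1/2/3 knockout 3338, 3487 and 3710. From highest to lowest mean the order was AGO1, AGO2, wild type, AGO1/2/3, AGO1/2, and all neighbours in it overlapped. XPO5 was lower in the AGO1/2 than in the AGO1 knockout, with all 3 samples of the first under all 3 of the second (log2 -0.42 ± 0.12, adjusted p = 0.0219). The call was lost without replicate 1 or 2 of the AGO1 knockout (adjusted p = 0.0773 and 0.0806) or replicate 2 of the AGO1/2 knockout (0.0915). Against the AGO2 knockout the AGO1/2 knockout stood at log2 -0.34 ± 0.12 and just missed the threshold (adjusted p = 0.0506), which it passed under 5 of 13 alternatives, among them DESeq2 (-0.38, adjusted p = 0.0272) and the omission of AGO2 knockout replicate 1 (-0.43, adjusted p = 0.0295). Against wild type no line passed, with adjusted p from 0.208 to 0.561. POLR1C, whose exons overlap XPO5 on the opposite strand, averaged 1389 normalized counts in the AGO1 and 843.7 in the AGO1/2 knockout, the lines between which XPO5 was called, and was lower in the same line as XPO5. It averaged 1147 in the wild type, 1384 in the AGO2 and 478.9 in the AGO1/2/3 knockout. The library is strand specific, and any part of that RNA in the XPO5 values was not tested.

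DICER1 is the cytoplasmic nuclease (ENSG00000100697, chromosome 14, 95086228 to 95158010, minus strand). In the fit reported here, with TMM scaling, it had the largest absolute log2 fold change of the 10 in each of the 4 knockout lines against wild type. ZSWIM8 was near it in the AGO1 knockout (-0.30 against 0.33) and the AGO2 knockout (-0.81 against 0.83). Over 13 alternatives DICER1 went as low as 0.25 and 0.71 in these lines, and ZSWIM8 as low as -0.42 and -0.93. In the AGO2 knockout DICER1 went no higher than 0.89, so its rank there did not hold under every alternative. In the AGO1 knockout the rank may likewise not hold under every alternative. Wild-type samples held 3172, 3448 and 3525 normalized counts, and AGO1 knockout samples 4562, 4423 and 3810. The AGO2 knockout gave 5236, 6797 and 6042, the AGO1/2 knockout 5623, 5422 and 5458, and the AGO1/2/3 knockout 8904, 9293 and 9864. Every one of the 12 knockout samples was above every wild-type sample, and the lines formed a ladder: wild type, then the AGO1 knockout, then the AGO2 and AGO1/2 knockouts, which overlapped, then the AGO1/2/3 knockout. In percent of the wild-type mean these steps were 126 for the AGO1, 163 for the AGO1/2, 178 for the AGO2 and 277 for the AGO1/2/3 knockout.

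DICER1 passed the test in 3 of the 4 lines, and the step between knockouts with and without AGO3 passed as well. The log2 fold change was 0.83 ± 0.10 in the AGO2 knockout (adjusted p = 0.000221), 0.70 ± 0.10 in the AGO1/2 knockout (adjusted p = 0.000298) and 1.47 ± 0.11 in the AGO1/2/3 knockout (95% interval 1.26 to 1.68, adjusted p = 5.9e-08). From the AGO1/2 to the AGO1/2/3 knockout it rose by log2 0.77 ± 0.10 (adjusted p = 8.66e-05). In the AGO1 knockout the value was log2 0.33 ± 0.10 and did not pass (adjusted p = 0.0607). It did pass there with DESeq2's test (0.34, adjusted p = 0.0355), with a filter of at least 10 counts in every sample (adjusted p = 0.0433), and without AGO1 knockout replicate 3, the lowest sample of its line (0.43, adjusted p = 0.0271). The AGO1/2 knockout exceeded the AGO1 knockout by log2 0.37 ± 0.10 (adjusted p = 0.0208), a call lost without AGO1 knockout replicate 2 (adjusted p = 0.0654) or 3 (0.121) and without AGO1/2 knockout replicate 1 (0.0842), 2 (0.0689) or 3 (0.0674). It was lost as well with no filter on low counts (0.34, adjusted p = 0.0785) and with only the 6 samples compared (0.35, adjusted p = 0.052).

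**Figure D2:**
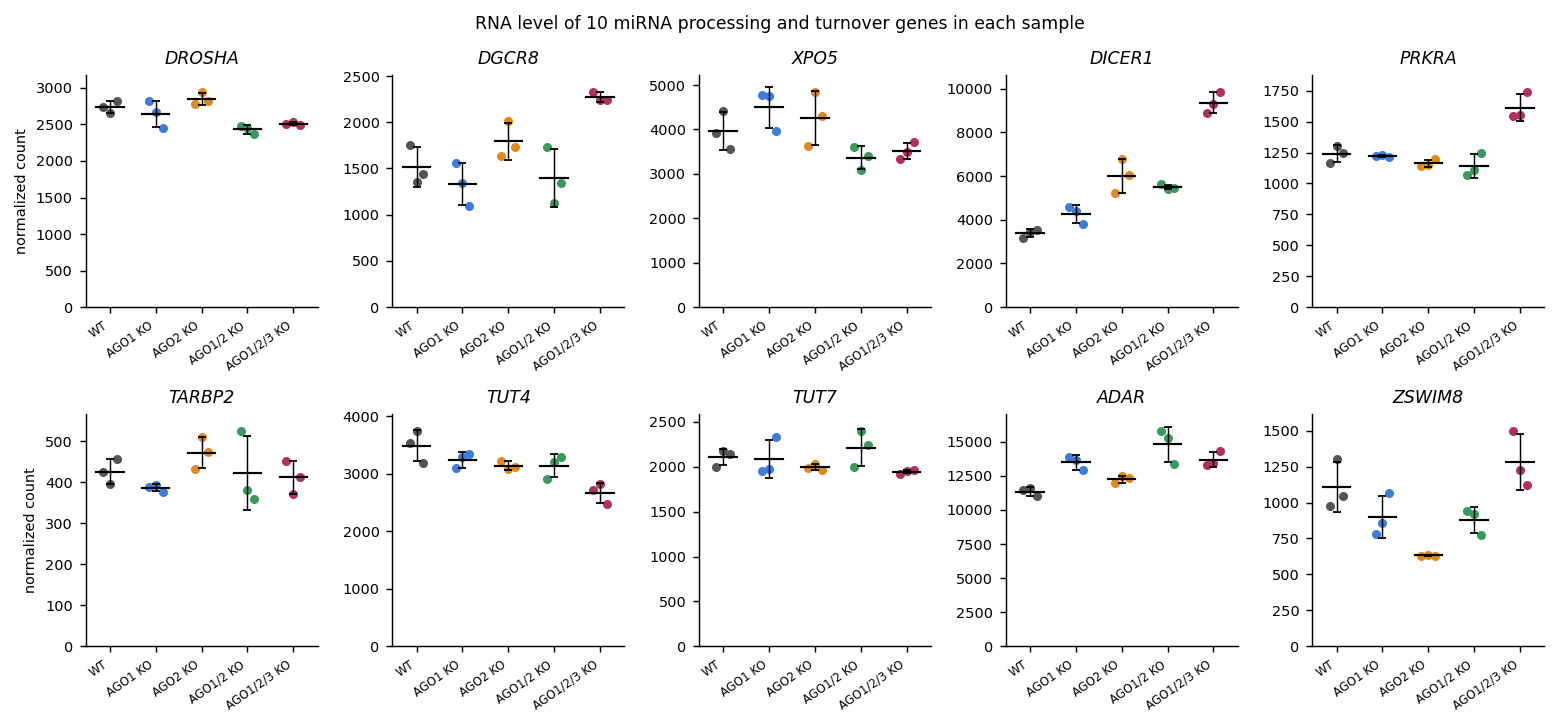
Normalized counts of the 10 genes in each of the 15 samples; points are samples, the horizontal line is the mean of a line and the bar its SD (n = 3). The 3 AGO1/2/3 knockout samples stand above all others for DGCR8, DICER1 and PRKRA and below all others for TUT4, and the 3 AGO2 knockout samples stand below all others for ZSWIM8.

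DICER1 mRNA has itself been reported as a target of miR-103 in its 3′-UTR and of let-7 in its coding sequence, so letters pairing with these miRNAs are shown. The mature sequences (RefSeq, GRCh38.p14) carry the seed in capitals.
hsa-miR-103a-3p: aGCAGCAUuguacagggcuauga
hsa-let-7a-5p: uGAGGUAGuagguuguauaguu

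Letters complementary to bases 2 to 8 of miR-103a-3p (ATGCTGC) occur 5 times in the 3′-UTR of DICER1, which at 4270 bases is longer than 90.1% of the 18780 3′-UTRs of the annotation. Of all these 3′-UTRs 12.6% hold the motif, and 5 of them (0.0266%) hold it 5 times or more, a share computed after the matches were seen. The sites (GENCODE v44 on GRCh38, minus strand, read 5′ to 3′, motif in capitals) are given by position.
chr14:95089457-95089479: tatcacacctaaaatATGCTGCa
chr14:95088856-95088878: ttgatgcttcgtggaATGCTGCa
chr14:95087652-95087674: tccgcagtcctaactATGCTGCg
chr14:95086381-95086403: aatatttaccatcacATGCTGCa
chr14:95086329-95086351: attcatacagtaatcATGCTGCa

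The let-7 motif (CTACCTC) was found 0 times in that 3′-UTR and 4 times in the coding sequence of DICER1. It occurs in 13.4% of all coding sequences and 9.85% of all 3′-UTRs, and 17 of 19061 coding sequences (0.0892%) hold it 4 times or more, again a share taken after the matches were seen. These sites are on the same strand.
chr14:95107888-95107910: tcagcatactgtgttCTACCTCt
chr14:95103748-95103770: tacccgtgcaaccaaCTACCTCa
chr14:95103640-95103662: gaaatgctaacaaatCTACCTCa
chr14:95094106-95094128: agatgcgattttggaCTACCTCa

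The same search for 6 seed families was made in the other 9 genes. The families were miR-103 and those of miRNAs assayed in the study's methods: let-7, miR-27 (ACTGTGA, in 15.9% of 3′-UTRs), miR-29 (TGGTGCT, 14.1%), miR-125 (CTCAGGG, 14.8%) and miR-21 (ATAAGCT, 8.78%). DICER1 had 8 matches from 4 families in its 3′-UTR. XPO5, TARBP2 and ADAR had 2 each, DROSHA, DGCR8 and PRKRA 1 each, and TUT4, TUT7 and ZSWIM8, with 3′-UTRs of 660, 944 and 274 bases beside a median of 1088, had 0. In coding sequence DICER1 had 6 matches (let-7 4, miR-103 1 and miR-125 1), TUT4 5, TUT7 4 and ZSWIM8 3. The coding sequences of these genes are 5769, 4938, 4488 and 5505 bases long. XPO5 and TARBP2 had 2 coding matches each, DGCR8 and PRKRA 1 each, and DROSHA and ADAR 0. A match describes letters only, and binding was not tested.

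TARBP2, a double-stranded RNA binding partner of DICER1 (ENSG00000139546, chromosome 12, 53500921 to 53506431, plus strand), did not pass edgeR's test in any comparison. Its 3′-UTR of 283 bases holds a let-7 and a miR-103 match, shown because the proteins work together (plus strand, motif in capitals).
chr12:53506236-53506258: ctgtgggtgccatctCTACCTCt
chr12:53506395-53506417: gagcctggaataaatATGCTGCt

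Normalized counts of TARBP2 ran from 395.3 to 457.2 in wild-type, 377 to 393.7 in AGO1 knockout, 432.5 to 509.5 in AGO2 knockout, 360.1 to 525 in AGO1/2 knockout and 371.6 to 452.2 in AGO1/2/3 knockout samples. All neighbours in the order of the lines overlapped. Log2 fold changes against wild type were -0.14 (AGO1), 0.15 (AGO2), -0.01 (AGO1/2) and -0.04 (AGO1/2/3), with adjusted p from 0.448 to 0.973. Over the 7 comparisons of lines edgeR called TARBP2 in 0, with 0 at an unadjusted p under 0.05 and 0 by DESeq2.

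PRKRA, also named PACT, binds DICER1 and the kinase EIF2AK2 (ENSG00000180228, chromosome 2, 178431292 to 178451512, minus strand). Wild-type samples had 1169, 1307 and 1248 normalized counts and AGO1 knockout samples 1220, 1227 and 1213. The AGO2 knockout had 1144, 1152 and 1194, the AGO1/2 knockout 1065, 1108 and 1247, and the AGO1/2/3 knockout 1545, 1555 and 1742. The last 3 samples were above all 12 others, which spanned 1065 to 1307. PRKRA rose in the AGO1/2/3 knockout to 130% of wild type (log2 0.38 ± 0.09, adjusted p = 0.00283) and over the AGO1/2 knockout (log2 0.50 ± 0.09, adjusted p = 0.000777). With scaling by total counts alone the first value was 0.24 and still passed. Log2 values in the other 3 lines against wild type were -0.02, -0.09 and -0.12 (AGO1, AGO2 and AGO1/2), and none of these 3 passed.

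TUT4, a terminal uridylyltransferase (ENSG00000134744, chromosome 1, 52408282 to 52553487, minus strand), gave normalized counts of 3530, 3744 and 3197 in wild type and of 2717, 2817 and 2473 in the AGO1/2/3 knockout. Between them were the AGO1 knockout with 3094, 3285 and 3348, the AGO2 knockout with 3224, 3090 and 3121 and the AGO1/2 knockout with 2918, 3210 and 3299. The AGO1/2/3 knockout samples were below all 12 others, and the remaining 4 lines overlapped their neighbours. TUT4 fell in the AGO1/2/3 knockout to 76.5% of wild type (log2 -0.39 ± 0.09, 95% interval -0.56 to -0.21, adjusted p = 0.00272). In the fit reported here it was the only one of the 10 genes to fall there. DROSHA and TUT7 were also called lower with total counts alone. DROSHA was called lower too with TMM scaling and a filter of at least 10 counts in every sample. In the other lines log2 values were -0.11, -0.15 and -0.15 (AGO1, AGO2 and AGO1/2), and none was called. Between the AGO1/2/3 and AGO1/2 knockouts the difference of -0.24 did not pass with edgeR (adjusted p = 0.0738) and did with DESeq2 (-0.23, adjusted p = 0.0228), with at least 10 counts in every sample (0.0334), with total counts (0.0412) and without AGO1/2 knockout replicate 1 (-0.29, adjusted p = 0.0456).

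TUT7, its relative with overlapping activity (ENSG00000083223, chromosome 9, 86287733 to 86354454, minus strand), spanned 1924 to 2399 normalized counts over the 15 samples. The wild-type samples ran from 2004 to 2180 and the AGO1/2/3 knockout from 1924 to 1964, the lowest mean of the 5 lines. The 3 samples of that knockout were under the wild-type samples, yet the difference was log2 -0.11 and not called (adjusted p = 0.356). Across the 7 comparisons edgeR called 0, with 0 at an unadjusted p under 0.05 and 0 by DESeq2. With total counts alone TUT7 was called lower in the AGO1/2/3 knockout (log2 -0.26, adjusted p = 0.0351). Whether TUT4 and TUT7 differ in their response was not tested.

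ADAR, the adenosine deaminase (ENSG00000160710, chromosome 1, 154581695 to 154628013, minus strand), had the highest level of the 10 per exon length. Its normalized counts were 11452, 11595 and 10992 in wild type, 13880, 13679 and 12898 in the AGO1 knockout and 11953, 12462 and 12360 in the AGO2 knockout. They were 15788, 15298 and 13340 in the AGO1/2 knockout and 13332, 13442 and 14296 in the AGO1/2/3 knockout. All 12 knockout samples exceeded the 3 wild-type samples, and the AGO2 knockout lay below the other 3 knockouts, which overlapped. ADAR rose to 131% of wild type in the AGO1/2 knockout (log2 0.38 ± 0.09, adjusted p = 0.00558) and to 121% in the AGO1/2/3 knockout (log2 0.27 ± 0.09, adjusted p = 0.0187).

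Of these, the AGO1/2 value lost its call only where the 6 samples of the 2 lines were fitted alone (0.37, adjusted p = 0.0973). The AGO1/2/3 value lost its call under 10 of 13 alternatives. These included scaling by total counts (0.13, adjusted p = 0.305) and the omission of replicate 1, 2 or 3 of wild type (adjusted p = 0.0739, 0.0515 and 0.11) or of the AGO1/2/3 knockout (0.057, 0.0603 and 0.154). In the AGO1 knockout ADAR stood at log2 0.25 ± 0.09 and was not called by edgeR (adjusted p = 0.0866), while DESeq2 called it (adjusted p = 0.0329). It was higher in the AGO1/2 than in the AGO2 knockout (log2 0.27 ± 0.09, adjusted p = 0.0301). That call was lost without AGO1/2 knockout replicate 1 (adjusted p = 0.111) or 2 (0.118), or without AGO2 knockout replicate 1 (0.0823), 2 (0.0876) or 3 (0.0909). It was also lost with DESeq2's size factors (0.24, adjusted p = 0.0633), with no filter on low counts (0.22, adjusted p = 0.258) and with only the 6 samples compared (adjusted p = 0.0624).

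ZSWIM8, the ligase receptor (ENSG00000214655, chromosome 10, 73785606 to 73801797, plus strand), had normalized counts of 976.1, 1306 and 1047 in wild type and of 630.5, 635.8 and 631.7 in the AGO2 knockout. The AGO1 knockout held 780.3, 855.3 and 1063, the AGO1/2 knockout 942.4, 919.7 and 775.4, and the AGO1/2/3 knockout 1497, 1223 and 1122. The AGO2 knockout samples were below the other 12, and the other lines overlapped their neighbours in the order AGO1/2/3 knockout, wild type, AGO1 knockout, AGO1/2 knockout. ZSWIM8 fell in the AGO2 knockout to 57% of wild type (log2 -0.81 ± 0.14, 95% interval -1.09 to -0.53, adjusted p = 0.0026). In the AGO1, AGO1/2 and AGO1/2/3 knockouts edgeR did not call it, at log2 -0.30 ± 0.14, -0.34 ± 0.14 and 0.21 ± 0.14 (adjusted p = 0.225, 0.13 and 0.268).

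Lines that lack both AGO1 and AGO2 had more ZSWIM8 RNA than the AGO2 knockout. The AGO1/2 knockout was higher by log2 0.47 ± 0.14 (adjusted p = 0.0261), a call lost without AGO1/2 knockout replicate 1 (adjusted p = 0.0666) or 2 (0.0772), or AGO2 knockout replicate 2 (0.0648) or 3 (0.0645). The AGO1/2/3 knockout was higher than the AGO1/2 knockout by log2 0.54 ± 0.14 (adjusted p = 0.0128), a call lost without AGO1/2 knockout replicate 3 (0.0797) or AGO1/2/3 knockout replicate 1 (0.0736). A gene that overlaps it on the opposite strand, ENSG00000272916, averaged 150.7 normalized counts in wild type, 106.8 in the AGO1, 75.7 in the AGO2, 83.1 in the AGO1/2 and 65.2 in the AGO1/2/3 knockout. Over wild type and the first 3 of these knockouts its means ranked as those of ZSWIM8 did, while in the AGO1/2/3 knockout it was lowest and ZSWIM8 highest. ZSWIM8-AS1, also on the opposite strand, averaged 26.4 in wild type, 13 in the AGO1, 9.15 in the AGO2, 12.5 in the AGO1/2 and 12 in the AGO1/2/3 knockout. The part of these RNAs in the ZSWIM8 values was not tested.

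Steps between knockout lines were set beside their background too. From the AGO1 to the AGO1/2 knockout 2 of the 10 genes passed (DICER1 higher and XPO5 lower), beside 19.5% of all genes (11.5% higher and 7.95% lower), and 2 had replicates that did not overlap, beside 34.2%. From the AGO2 to the AGO1/2 knockout 3 passed (ADAR and ZSWIM8 higher, DROSHA lower), beside 23.9% (12.8% higher and 11.1% lower), and 4 did not overlap, beside 42.5%. From the AGO1/2 to the AGO1/2/3 knockout 4 passed, all higher (DGCR8, DICER1, PRKRA and ZSWIM8), beside 22.0% (11.9% higher and 10.0% lower), and 7 did not overlap, beside 41.6%.

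The 4 lines that are wild type or lack AGO1, AGO2 or both form a 2 by 2 design, in which the effect of AGO1 loss can be compared with and without AGO2. For 3 of the 10 genes this difference of effects passed the test, 1 higher and 2 lower, beside 19.7% of all genes (11.5% higher and 8.26% lower). ZSWIM8 went from log2 -0.30 with AGO2 to 0.47 without it, a difference of 0.78 ± 0.20 (adjusted p = 0.0149), and this call held under all 18 alternatives. For DICER1 the values were 0.33 and -0.13, a difference of -0.47 ± 0.15 (adjusted p = 0.0373), and for XPO5 0.18 and -0.34, a difference of -0.53 ± 0.17 (adjusted p = 0.0412). All 3 differences use the AGO2 knockout libraries with their differing header and greater depth.

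Calls for DICER1 and XPO5 in this design depended on most of the samples. The one for DICER1 was lost with total counts (-0.34, adjusted p = 0.109), with the replicate number as a block (0.0502), and without any of 9 of the 12 samples: wild type 1 (0.089) or 2 (0.0505), AGO1 knockout 1 (0.092) or 2 (0.0721), AGO2 knockout 2 (0.121) or 3 (0.0833), and AGO1/2 knockout 1 (0.0535), 2 (0.0911) or 3 (0.0584). The one for XPO5 was lost with total counts (-0.40, adjusted p = 0.119), with the block (0.0552), and without any of 8: wild type 1 (0.0781) or 3 (0.0923), AGO1 knockout 1 (0.0948) or 2 (0.0812), AGO2 knockout 2 (0.131) or 3 (0.0907), and AGO1/2 knockout 2 (0.12) or 3 (0.0579). These omissions were chosen after the data were seen. The other 7 genes had adjusted p from 0.285 for DROSHA to 0.986 for PRKRA.

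**Figure D3:**
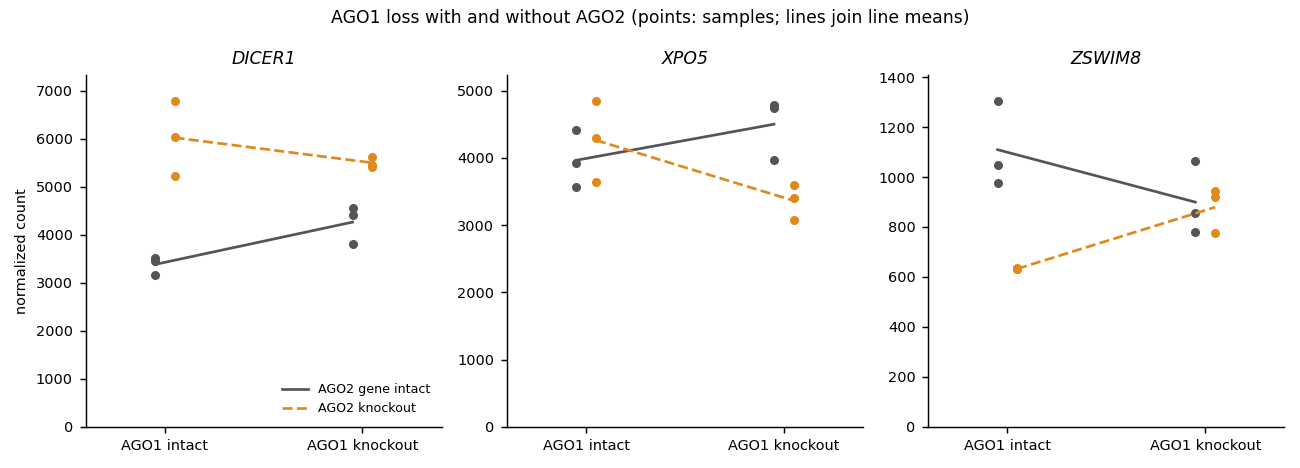
Normalized counts of DICER1, XPO5 and ZSWIM8 with AGO1 intact (left) and knocked out (right); grey points and solid lines have the AGO2 gene intact, orange points and dashed lines have it knocked out, and lines join means of 3 samples. The slopes of the solid and dashed lines have opposite signs in all 3 panels, at log2 0.33 and -0.13, 0.18 and -0.34, and -0.30 and 0.47.

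Levels can be compared between genes only per length. In wild-type cells ADAR was the most abundant of the 10, at 27.9 ± 0.774 CPM per kilobase of merged exons (SD, n = 3), above 95.1% of the genes tested. XPO5 followed with 14.1 ± 1.52, DROSHA with 10.6 ± 0.309 and TUT7 with 9.45 ± 0.413. TUT4 (6.48 ± 0.512) and DGCR8 (6.22 ± 0.879) overlapped within their SD, as did DICER1 (4.59 ± 0.252) and ZSWIM8 (4.21 ± 0.658). The partners of DICER1 were lowest on this scale, at 3.13 ± 0.227 for TARBP2 and 3.1 ± 0.173 for PRKRA, above 60.1% and 59.8% of the genes tested. Taking the length of the longest transcript instead raised every value by more than 1 SD and changed ranks: TUT4 went from 5 to 3 (17.9) and PRKRA from 10 to 7 (9.6), while ADAR (46.9) and XPO5 (22.4) kept 1 and 2.

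**Figure D4:**
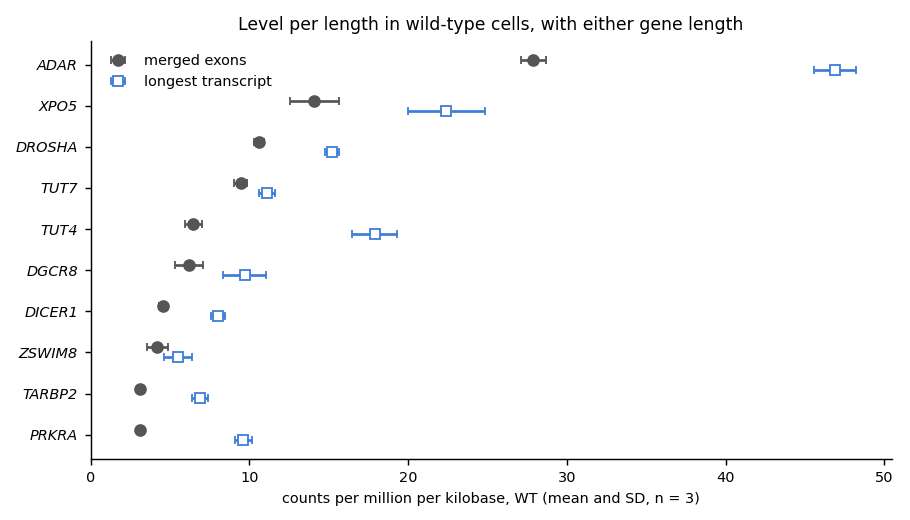
Level of the 10 genes in wild-type cells in CPM per kilobase, with the length of merged exons (circles) or of the longest transcript (squares); bars are the SD over 3 samples. ADAR is highest with either length, at 27.9 and 46.9, and ZSWIM8 is lowest with the longest transcript, at 5.5.

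Across the 15 samples the 10 genes moved together only in part. Of the 45 pairs, DICER1 and TUT4 had the most negative Pearson correlation of log2 normalized counts (-0.88, n = 15), followed by DGCR8 and TUT7 (-0.81). DGCR8 and DICER1 had the most positive (0.72), then DROSHA and XPO5 (0.66). These are descriptions, since the samples of a line share its genotype and every pair shares the libraries.

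Over the same 15 samples, each of the 5 members called in the AGO1/2/3 knockout was set beside every gene averaging 1 CPM or more, and the 3 most like it are named. DICER1 was most like MAPRE1 (r = 0.971), GALNT7 (0.971) and G3BP1 (0.970), which had log2 fold changes of 1.01, 1.96 and 1.11 in that knockout. Within lines, with each line's mean removed, these correlations were 0.80, 0.53 and 0.66. DGCR8 was nearest to PCNT (0.953), DIDO1 (0.948) and LIMK2 (0.939), with 0.90, 0.88 and 0.88 within lines. For PRKRA the nearest were ZNF697 (0.940), TPM1 (0.939) and LAMC1 (0.938), with 0.45, 0.36 and 0.62 within lines. TUT4 was nearest to ENSG00000272405 (0.951), SLC2A11 (0.944) and IQCH-AS1 (0.942), with 0.87, 0.76 and 0.76 within lines. ADAR was nearest to SCYL2P1 (0.895), HTR1D (0.877) and ZNF772 (0.875), with 0.46, 0.84 and 0.26. The genes were chosen for the correlation over all samples, of which the part within lines is a component, so the latter is a description.

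Genes near each member were compared with it, over those averaging 1 CPM or more that start within 5 Mb. Around DICER1 there were 63 such genes, whose median log2 fold change was 0.18 in the AGO1/2/3 knockout, 20 higher and 8 lower, beside 1.47 for DICER1 and -0.01 for all genes tested, of which 20.3% were higher and 19.8% lower. DICER1 lay above the upper quartile of these neighbours there (0.49), in the AGO2 knockout (median 0.00, upper quartile 0.29) and in the AGO1/2 knockout (0.02 and 0.24). In the AGO1 knockout its 0.33 lay within their quartiles (-0.03 and 0.34, median 0.15), with 7 higher and 1 lower beside 3.17% and 5.50% of all genes. Around ZSWIM8 the median in the AGO2 knockout was 0.05 over 84 genes, 5 higher and 10 lower (8.55% and 10.8% of all genes), beside -0.81 for ZSWIM8 and a lower quartile of -0.28. In the AGO1/2/3 knockout DGCR8, at 0.58, lay above the upper quartile of its 122 neighbours (quartiles -0.41 and 0.33), and PRKRA, at 0.38, just above that of its 44 (-0.26 and 0.36). ADAR, at 0.27, lay within the quartiles of its 177 neighbours (-0.44 and 0.30). TUT4 moved against its own: its 53 neighbours had a median of 0.20 there, with 20 higher and 5 lower and a lower quartile of -0.19, beside -0.39.

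The rest of the pathway was followed in 60 genes on 7 lists, of which 59 were tested (ADARB2, at 11 counts at most, was not). In the AGO1/2/3 knockout 11 were higher and 7 lower, with a median log2 fold change of 0.12 beside -0.01 for all genes tested. The 18 called of 59 are a smaller share than the 40.1% called among all genes in that line (20.3% higher and 19.8% lower). The count was 11 in place of 18 without replicate 3 of that knockout. With scaling by total counts alone it was 5 higher and 10 lower, with a median of -0.02. The balance of directions on these lists therefore depends on the scaling. So does that of the 10 genes in this line, which went from 4 higher and 1 lower to 3 higher and 3 lower with total counts, without a change of sign among values that passed.

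Of the 10 genes that tail and trim RNA 2 were lower and 0 higher in the AGO1/2/3 knockout, beside 19.8% of all genes lower, and the median was -0.01, as for all genes. TUT1, the uridylyltransferase of U6 RNA, fell from 716 ± 42 to 389 ± 33 normalized counts (SD, n = 3; log2 -0.88 ± 0.09 (SE), adjusted p = 2.7e-06). PARN, a poly(A) ribonuclease, fell by log2 -0.62 ± 0.09 (adjusted p = 7.25e-05).

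Trigger RNAs for the decay that ZSWIM8 carries out rose in the same knockout, 3 of 4, with a median of 0.84. OIP5-AS1, also called Cyrano, went from 5417 ± 1407 to 13995 ± 152 normalized counts (log2 1.37 ± 0.14, adjusted p = 2.2e-06), and BCL2L11 from 928 ± 120 to 2081 ± 324 (log2 1.17 ± 0.14, adjusted p = 8.27e-06). NREP, singled out after its values were seen, rose by log2 0.52. BCL2L11 was also higher in the AGO1/2 knockout (log2 0.65 ± 0.14, adjusted p = 0.00413).

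The counts on the other lists in the AGO1/2/3 knockout stand beside the same 40.1% of all genes called. Nuclear cofactors had 3 higher and 2 lower of 13 (median 0.20), with the largest value for the helicase DDX17 (log2 0.56 ± 0.11, adjusted p = 0.000555). Export and loading factors had 1 higher and 0 lower of 10 (median 0.14), where HSPA8 had the largest value, 0.64 ± 0.40, and was not called (adjusted p = 0.232). Turnover and decay genes had 2 higher and 2 lower of 10 (median -0.07), with the largest value at -0.42 for PNPT1, not called (adjusted p = 0.0687) except under 4 of 13 alternatives. Editing genes had 2 higher and 0 lower of 5 tested (median 0.36). The largest there, the helicase DHX9, stood at 0.55 ± 0.19 (adjusted p = 0.0292), a call lost without wild-type replicate 2 (0.34, adjusted p = 0.156) or AGO1/2/3 knockout replicate 2 (0.0761) or 3 (0.135), with total counts (0.0987) and with only the 6 samples compared (0.0588). Other double-stranded RNA binding proteins had 0 higher and 1 lower of 7 (median 0.12), PRKRIP1 at log2 -0.41 ± 0.11 (adjusted p = 0.00816).

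Single samples decided several of these counts. The 5 nuclear cofactors became 2 without AGO1/2/3 knockout replicate 1 or 3, and 3 without its replicate 2 or without wild-type replicate 1 or 3. The 4 turnover and decay genes became 0 higher and 2 lower without wild-type replicate 1 or AGO1/2/3 knockout replicate 3. With total counts that list had 0 higher and 5 lower (median -0.21). The 1 export and loading factor became 0 without AGO1/2/3 knockout replicate 2 or 3. Without wild-type replicate 2 that list had 0 higher and 1 lower (median -0.05). The 2 editing genes became 1 without wild-type replicate 2 or AGO1/2/3 knockout replicate 2 or 3. With only the 6 samples compared the counts of nuclear cofactors, export and loading factors and editing genes were 2, 0 and 1, with total counts 3, 0 and 1, and with no filter on low counts nuclear cofactors numbered 3 and export and loading factors 0.

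The lists were counted in the other knockouts too, and differences between lines in these counts were not tested. The AGO2 knockout had 14 higher and 3 lower of the 59, with a median of 0.27 beside -0.02. Of all genes 19.3% were called there (8.55% higher and 10.8% lower). Of the 10 export and loading factors 7 rose (median 0.72), beside the same 8.55%. Those 7, named after their values were seen, were RAN (log2 0.57), HSP90AA1 (0.90), HSP90AB1 (0.82), PTGES3 (0.70), STIP1 (0.65), AHSA1 (0.83) and TSNAX (0.29). The calls hung on few samples: of the 59, 0 were called without wild-type replicate 2, 9 without wild-type replicate 1, 0 without AGO2 knockout replicate 2 and 1 without AGO2 knockout replicate 3, against 17 with all samples, though the export and loading median stayed between 0.49 and 0.93. With total counts alone 3 were higher and 4 lower, with the replicate number as a block 11 were called, and with only the 6 samples compared 4 were. The AGO1/2 knockout had 3 higher and 6 lower (median 0.04 beside 0.01), near the 16.7% of all genes called, with 4 called without its replicate 1, 5 with no filter on low counts and 3 with only the 6 samples compared. In the AGO1 knockout edgeR called 0 of the 59 (median 0.05 beside -0.01), beside 8.68% of all genes, with 7 at an unadjusted p under 0.05 and 1 called by DESeq2.

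**Figure D5:**
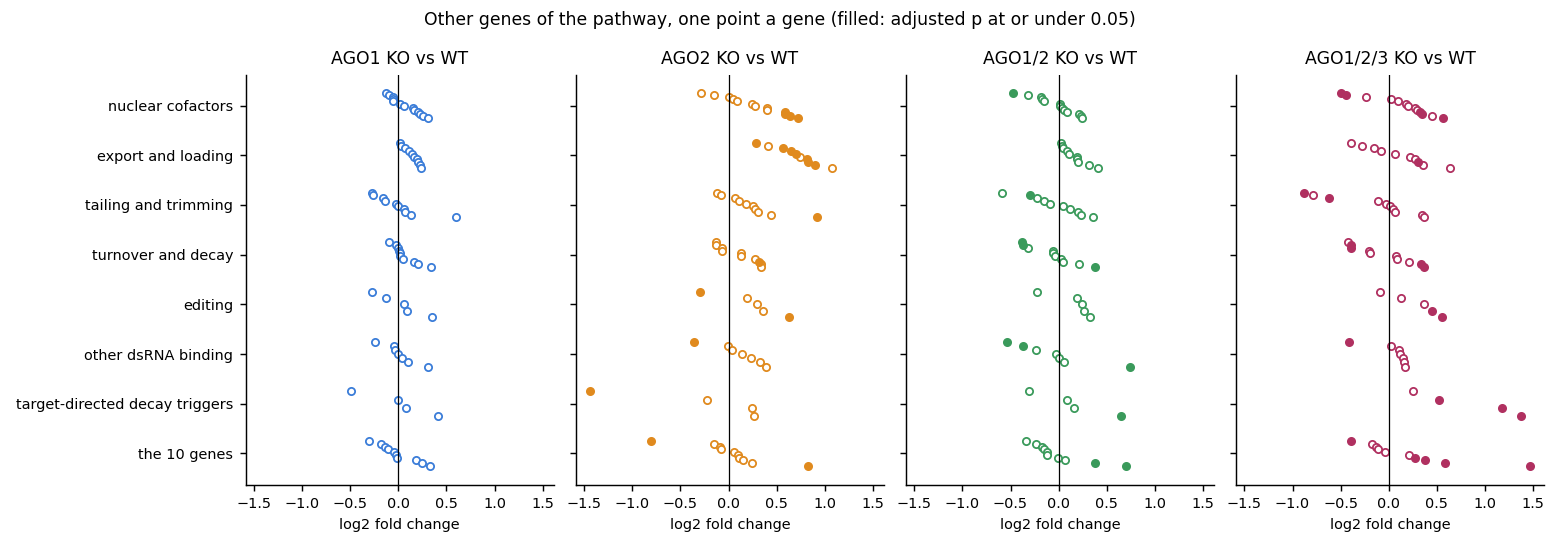
Log2 fold change against wild type of the genes on the 7 pathway lists and of the 10 genes, one panel a knockout line; each point is a gene and filled points have an adjusted p at or under 0.05. The export and loading factors sit to the right of 0 in the AGO2 knockout (median 0.72), and the target-directed decay triggers in the AGO1/2/3 knockout (median 0.84).

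Markers of cell type differed between lines as well. In the AGO1/2/3 knockout EPCAM fell by log2 -1.74 (adjusted p = 6.02e-09), CDH1 by -3.51 (adjusted p = 7.51e-08) and KRT8 rose by 0.41 (adjusted p = 0.0157), 3 of 6 epithelial markers. The summed epithelial level was 1811 to 2040 CPM in wild-type, 1364 to 1507 in AGO1 knockout, 1706 to 1903 in AGO2 knockout, 2238 to 2708 in AGO1/2 knockout and 1722 to 2210 in AGO1/2/3 knockout samples. Fibroblast markers, mostly COL1A1, summed to 23.2 to 30.5 CPM in wild-type and 26.9 to 30.1 in AGO1/2/3 knockout samples, and to 14 to 19.1 in the AGO1, 11.7 to 13.4 in the AGO2 and 12.8 to 15.9 in the AGO1/2 knockout. Of these 4 genes COL3A1, at 0.9 CPM or less in every sample, rose in the AGO1/2/3 knockout (log2 3.10, adjusted p = 0.000508). Over all samples endothelial markers summed to 1.47 to 3.21 and leukocyte ones to 0.833 to 1.96, with CD3E at 0 in 13 of 15 samples. Their part in the values of the 10 genes was not tested.

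Scaling is the last measured fact that bears on all these values. With total counts alone in place of TMM the median of all genes moved to log2 -0.10 in the AGO1, -0.14 in the AGO2, -0.08 in the AGO1/2 and -0.15 in the AGO1/2/3 knockout against wild type, and to 0.17 for the difference of effects. The share of calls that were higher went from 36.6% to 20.5%, 44.3% to 16.9%, 50.1% to 34.9% and 50.7% to 36.7% in these 4 lines in the same order, and from 58.1% to 73.8% for the difference of effects. For the AGO2 knockout it was 28.3% with only the 6 samples compared.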

How the data were processed

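The authors aligned reads to hg38 with STAR and quantified them with Salmon (2.5.3a and 0.11.0 in the deposited notes; the paper gives other releases), and deposited an estimated count per gene for each sample. Libraries were made from total RNA depleted of ribosomal RNA, were stranded, and were sequenced as paired ends on an Illumina NextSeq. The 8 eCLIP samples were not used.

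Counts were rounded, filtered with filterByExpr and TMM-normalized. All 15 samples entered one edgeR 4.0.16 model (R 4.3.3) that has a mean per line, and its quasi-likelihood test was adjusted by Benjamini-Hochberg over the genes tested. DESeq2 1.42.0 was an alternative. Tables were made with Python 3.11.15, numpy 2.4.6 and pandas 2.3.3. Positions are from GENCODE v44, which holds 57167 of the 57875 identifiers.

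Named genes are the 10 members, AGO1 to AGO4, pathway genes called in the AGO1/2/3 knockout with a log2 fold change of at least 0.58 or largest in their list there, and the 3 genes most like each member called there. Overlapping genes are named by position, and any further gene was picked with its values in view. Not all overlapping genes are described above. From wild type to the AGO1/2/3 knockout, opposite-strand TRMT2A (at DGCR8) went from 609.6 to 475.3 normalized counts and DICER1-AS1 from 343.1 to 269.8. At PRKRA, CHROMR went from 319.8 to 267.4 and PJVK from 71.5 to 27. The members at these 3 positions rose there. ENSG00000243762 (DGCR8), ENSG00000270175 (TARBP2) and ENSG00000280238 (ZSWIM8) also overlap. The pathway lists cover nuclear cofactors, export and loading, tailing and trimming, turnover and decay, editing, other double-stranded RNA binding proteins, and target-directed decay triggers; the marker lists cover epithelial, fibroblast, leukocyte and endothelial cells. Members and lists were chosen with earlier results of these data known.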

Additional observations from a re-analysis of the deposited data

Results flagged for a closer look

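The effect of AGO1 loss differed by test between cells with and without AGO2 for 3 of the 10 genes, beside 19.7% of all genes tested. For XPO5 the difference was log2 -0.53 ± 0.17 (95% interval -0.86 to -0.19), for DICER1 -0.47 ± 0.15 (-0.75 to -0.18) and for ZSWIM8 0.78 ± 0.20 (0.38 to 1.17). The XPO5 and DICER1 calls were lost with total counts (adjusted p = 0.119 and 0.109), with the replicate block (0.0552 and 0.0502) and without any of 8 and 9 of the 12 samples.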

How the results depend on the processing

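Of 1235 alternative values of log2 fold changes, 1154 kept their side of the threshold, 25 gained a call and 56 lost one; of 180 for the difference of effects, 159 kept their side and 21 lost a call. Signs changed only for values that passed the test neither as reported nor under the alternative. Counts of the 10 genes called moved by more than 1.5 times in 32 of 116 cases. In AGO1 knockout against wild-type cells the count of 0 became 2 with DESeq2's Wald test, 1 with at least 10 counts in every sample and 0 to 1 with a sample left out. A threshold of 2-fold left 0 of 2 in the AGO2, 0 of 2 in the AGO1/2 and 1 of 5 in the AGO1/2/3 knockout. Between knockouts it left 0 of 2 (AGO1/2 against AGO1), 0 of 3 (AGO1/2 against AGO2) and 0 of 4 (AGO1/2/3 against AGO1/2). A fit of only the 6 samples compared gave 1 in the AGO1/2 knockout against wild type, 1 in AGO1/2 against AGO1 and 1 in AGO1/2 against AGO2, where no filter gave 1 in AGO1/2 against AGO1. Leaving out a sample gave 0 to 1 in AGO1/2 against AGO1, 0 to 2 in AGO1/2 against AGO2 and 3 to 5 in AGO1/2/3 against AGO1/2. For the difference of effects, total counts gave 1 of 3, the replicate block gave 1, and leaving out a sample, added after seeing the data, gave 1 to 3. Counts of list genes, also rerun after seeing the data, moved in 108 of 416 cases. The cause of these changes was not tested. The labels do not say whether replicate numbers pair samples. Over 30 pairs with the same number the mean correlation was -0.0159 (-0.471 to 0.596), with 10 over 0.1, beside 0.00773 for other numbers, and with the replicate block DROSHA lost its call between the AGO1/2 and AGO2 knockouts (adjusted p = 0.0652).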
